A study of Mus musculus with 10 samples.

Results

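The comparison described here sets loss of the transcription factor Tfap2c against loss of Tfap2c motifs in the genome, in mouse embryos at the 8-cell stage. It rests on 6 of the 10 RNA libraries of the series, chosen by their labels: 2 of Tfap2c_KD, a knockdown labelled siTfap2c, 2 of the motif knockout Arpc1bE_CdxE1_KO and 2 of the motif knockout CdxE2_KO. The 2 libraries of the control, Ctrl, are given beside them. All 8 carry the genotype label BDF1, and both knockouts carry the treatment label Tfap2c motif KO. The labels give neither the positions of the deleted motifs nor the number of embryos in a library, so the positions were not analysed here. They do not say whether the libraries of a group came from separate embryo pools, and the spread that the p-values rest on may therefore be technical.

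Tfap2c, also called AP-2 gamma, belongs to the AP-2 family, whose members bind GC-rich palindromes and act as activators or repressors. In the mouse preimplantation embryo it is known for work on genes of the future trophectoderm, which forms the blastocyst's outer wall, and on genes of cell polarity. Cdx2 encodes a homeodomain factor of the trophectoderm. The protein of Arpc1b belongs to the Arp2/3 complex, from which new actin branches grow. The names of the knockouts hold Arpc1b and Cdx, and of the Cdx genes Cdx2 was followed. A knockdown lowers a factor for every gene it acts on, whereas a motif knockout leaves the factor in place and removes single binding sequences.

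Each value is a gene abundance on the authors' log2 scale, where 1 unit was added before the logarithm. The knockdown stands in a deposited table of its own, whereas both knockouts and the control share a table, so the comparison runs across tables that may have been scaled apart. The gap in linear sums given below lies within the shared table, between knockouts and control. A gene was tested where 2 or more of the 6 libraries held 1 linear unit or more, which left 11016 of 24421 genes, and each library was then centred on its median. Levels below are on this centred log2 scale unless named otherwise. A difference in bulk RNA cannot tell fewer cells of a type from less RNA per cell.

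The 4 knockout libraries stood apart from the other libraries in ways that are not tied to single targets. Their linear abundances summed to between 478651 and 498621 units, against 388454 and 389523 in the knockdown and 389715 and 390386 in the control. The control, deposited beside the knockouts, thus had sums near those of the knockdown. Differences between knockdown and knockouts cannot be told apart by this design from this gap between whole libraries, whose cause was not tested. Box C/D and H/ACA RNAs, the small guides of RNA modification, held 1.99% to 2.70% of the sums of the knockouts, against 0.714% and 0.742% in the knockdown and 0.677% and 0.632% in the control. The libraries of the Klf5 knockdown, which are not compared here, held 0.731% and 0.787%. Across tested genes, Pearson's r was 0.993 within the knockdown, 0.984 to 0.987 within a knockout, 0.981 to 0.987 between the knockouts and 0.950 to 0.957 between knockdown and knockout libraries. Against the control libraries r was 0.966 to 0.968 for the knockdown and 0.969 to 0.978 for the knockouts. These r are across genes, which are not independent replicates. Pou5f1 and Cdh1, which 8-cell embryos express, were present in all 8 libraries, at 5.10 to 6.72 for Pou5f1 and 6.06 to 6.52 for Cdh1. Of markers of cells that could be carried along, 3 of 18 cumulus and granulosa genes, 1 of 12 sperm genes and 1 of 7 red blood cell genes passed the filter on low values. Fshr, Lhcgr and Nr5a1 of the cumulus list, Prm1 and Smcp of the sperm list, and Hbb-bs and Hbb-bt of the red blood cell list were at 0 in all 8 libraries. The cumulus genes summed to 5.53 and 6.36 units in the knockdown, 6.64 to 9.02 in the knockouts and 4.69 and 5.72 in the control. The sperm genes summed to 15.9 and 16.9 units in the knockdown, 17.3 to 23.7 in the knockouts and 11.3 and 14.8 in the control. The sperm list as a whole was thus not absent, although Prm1 and Smcp were at 0. The part of these marker lists in the results was not tested.

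The factor itself checks the labels, since it is the gene targeted by the knockdown. Tfap2c (chromosome 2, 172549593 to 172558622 on mm10, plus strand) stood at 4.15 and 4.30 in the knockdown, at 6.38 and 6.58 in Arpc1bE_CdxE1_KO, at 6.51 and 6.36 in CdxE2_KO and at 6.82 and 6.84 in the control. Both knockdown libraries lay below all 4 knockout libraries. The group means were 4.23 ± 0.11 in the knockdown, 6.48 ± 0.14 in Arpc1bE_CdxE1_KO, 6.44 ± 0.10 in CdxE2_KO and 6.83 ± 0.01 in the control (SD, n = 2 each). The difference of the knockdown from the mean of both knockouts was -2.23 ± 0.10 (SE), with a limma adjusted p of 1.68e-05 after Benjamini-Hochberg correction over all tested genes.

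Klf5 (chromosome 14, 99298691 to 99315036, plus strand), the Krüppel-like factor that the series also depleted in other embryos, was lower in the Tfap2c knockdown as well. It stood at 5.53 and 5.66 in the knockdown, 6.86 and 7.05 in Arpc1bE_CdxE1_KO, 7.01 and 6.84 in CdxE2_KO and 7.41 and 7.36 in the control. Knockdown and knockouts did not overlap, and the difference from the knockout mean was -1.34 ± 0.09 (SE, limma adjusted p = 0.00012).

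Arpc1b (chromosome 5, 145114215 to 145130705, plus strand) separated all 3 conditions. It stood at 1.45 and 1.48 in the knockdown, 3.15 and 3.22 in Arpc1bE_CdxE1_KO, 4.74 and 4.54 in CdxE2_KO and 4.92 and 4.70 in the control. In linear units as deposited these were 1.36 and 1.40 in the knockdown, 8.66 and 8.85 in Arpc1bE_CdxE1_KO, 27.7 and 24.3 in CdxE2_KO and 25.2 and 21.3 in the control. The knockout whose name holds Arpc1b thus lay between the knockdown and the other knockout, and CdxE2_KO overlapped the control. The knockdown was lower than Arpc1bE_CdxE1_KO by -1.72 ± 0.12 (SE, limma adjusted p = 0.000203) and lower than CdxE2_KO by -3.18 ± 0.12 (limma adjusted p = 1.497e-05). Against the control, the differences were -3.35 in the knockdown (limma adjusted p = 2.67e-06), -1.63 in Arpc1bE_CdxE1_KO (0.000235) and -0.17 in CdxE2_KO (0.399). Arpc1a, which encodes the other form of this subunit, stood at 4.91 and 4.78 in the knockdown, 4.30 and 4.35 in Arpc1bE_CdxE1_KO, 5.08 and 4.92 in CdxE2_KO and 4.98 and 4.90 in the control. Its difference from the mean of both knockouts, 0.18 ± 0.09 (SE), was not called (limma adjusted p = 0.166). That mean joins knockouts on either side of the knockdown. Both Arpc1bE_CdxE1_KO libraries lay below the knockdown and control libraries for Arpc1a, and both CdxE2_KO libraries lay above the knockdown.

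Cdx2 (chromosome 5, 147300805 to 147307270, minus strand) was low in all 6 libraries and reached 1 linear unit in 1 of them, so the filter left it out of the tested genes. Its centred levels were 0.44 and 0.78 in the knockdown, 0.65 and 1.45 in Arpc1bE_CdxE1_KO, 0.71 and 0.81 in CdxE2_KO and 2.56 and 2.70 in the control. In deposited linear units, the knockdown held 0.174 and 0.480, Arpc1bE_CdxE1_KO 0.708 and 1.88, CdxE2_KO 0.762 and 0.900 and the control 4.10 and 4.57. All 6 libraries lay below both control libraries on both scales. In deposited units both knockdown libraries lay below all 4 knockout libraries, whereas after centring the knockdown overlapped both knockouts. In a fit with no filter, Cdx2 in the knockdown differed from the mean of both knockouts by -0.41, with a 95% interval from -0.998 to 0.188 (limma adjusted p = 0.228). That interval holds 0 as well as a clearly lower level in the knockdown. In the same kind of fit with the control, the differences from the control were -2.02 for the knockdown (limma adjusted p = 0.00564), -1.46 for Arpc1bE_CdxE1_KO (0.0144) and -1.77 for CdxE2_KO (0.00837). The size of the Cdx2 difference at such low values depends on scaling and on the added constant. The knockdown minus the knockout mean was -0.29 after centring, -0.61 as deposited, -0.51 scaled to the linear sum, -1.09 with 0.1 added and 0.03 with 5 added.

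**Figure D1:**
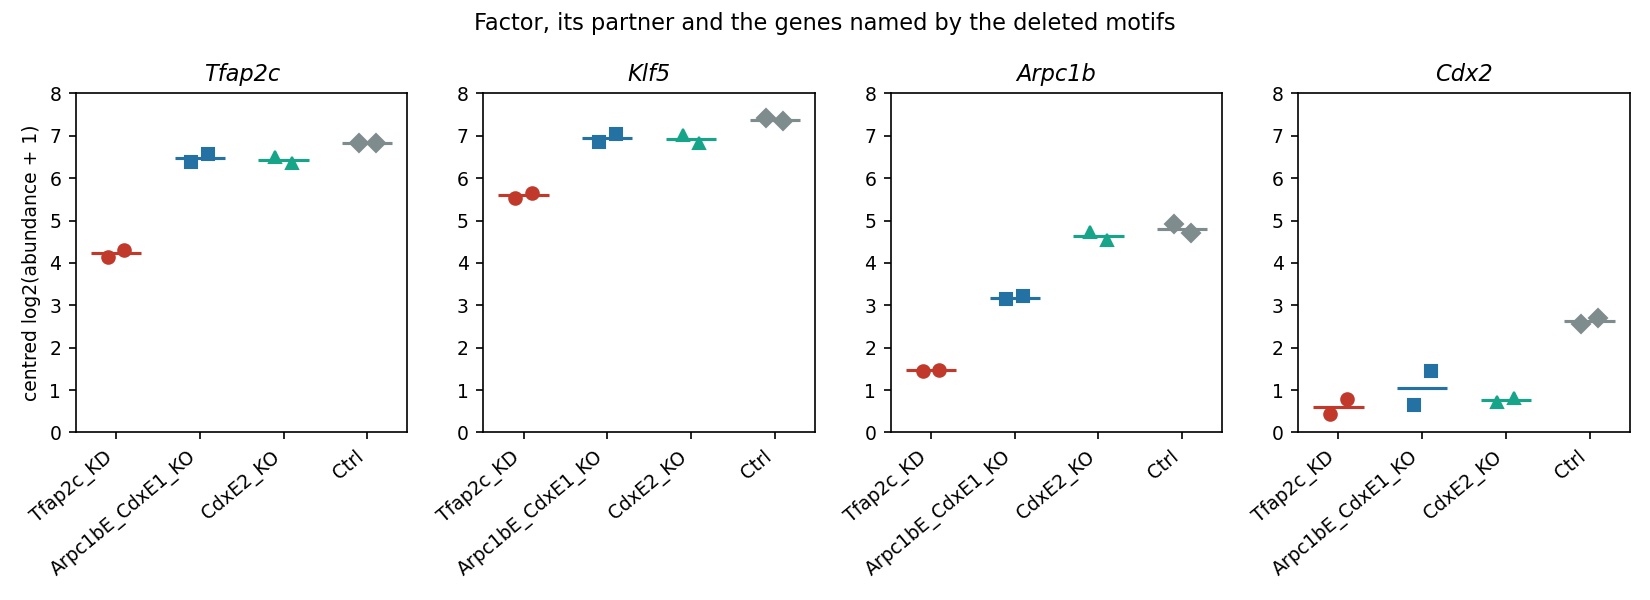
Centred log2(abundance + 1) of Tfap2c, Klf5, Arpc1b and Cdx2 (vertical axes) in Tfap2c_KD, Arpc1bE_CdxE1_KO, CdxE2_KO and Ctrl, with 1 point per library and a bar at the mean of each group. Tfap2c and Klf5 were lowest in the knockdown, Arpc1b stepped up over the knockdown, Arpc1bE_CdxE1_KO and CdxE2_KO, and Cdx2 was low in all 3 conditions against the control.

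The promoters of the genes in the knockouts' names are shown because an AP-2 palindrome in them is a sequence the factor could meet, whichever sites were deleted. The motif searched was GCCNNNGGC, which reads the same on both strands. RefSeq promoters on GRCm38.p6 were used, from 250 bases before to 50 after a gene's start, and 16.6% of the 32851 promoters in the table hold the motif, as do 25.3% of the 10315 that belong to tested genes. Capitals mark the motif, and each sequence runs along the gene's own strand.
Arpc1b (chr5:145114006-145114305, plus strand): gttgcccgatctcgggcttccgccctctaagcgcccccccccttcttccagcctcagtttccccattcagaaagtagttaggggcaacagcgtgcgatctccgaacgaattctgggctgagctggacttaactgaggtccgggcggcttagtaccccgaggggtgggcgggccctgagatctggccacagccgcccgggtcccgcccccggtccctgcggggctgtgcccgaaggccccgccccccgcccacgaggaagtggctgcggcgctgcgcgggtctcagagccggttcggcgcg
Cdx2 (chr5:147307200-147307499, minus strand): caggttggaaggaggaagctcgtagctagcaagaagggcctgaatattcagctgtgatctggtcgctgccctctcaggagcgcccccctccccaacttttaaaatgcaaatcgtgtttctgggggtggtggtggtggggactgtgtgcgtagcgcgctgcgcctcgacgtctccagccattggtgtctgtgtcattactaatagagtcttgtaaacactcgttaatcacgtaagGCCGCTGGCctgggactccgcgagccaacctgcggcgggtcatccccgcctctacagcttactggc
In the Cdx2 window the motif begins at position -16 from the start, and the Arpc1b window does not hold these letters. Only a gap of 3 bases was searched. The Arpc1b window holds GCC and GGC with a longer gap, as gcccgaaggc, so the contrast between the windows is for the searched gap only. A match is a description of the letters and not a binding site. A comparison of motif shares between called and other genes was void, since 73.9% of the tested genes, fewer than 80%, had an entry in the promoter table under their symbol, and no such shares are given.

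Across the tested genes, the knockdown and the knockouts differed widely. Against the mean of both knockouts, 3708 of 11016 genes (33.7%) were called by limma at an adjusted p under 0.05, of which 2127 (19.3% of all tested) were higher and 1581 (14.4%) lower in the knockdown. Of these, 250 were at least 2-fold higher and 366 at least 2-fold lower. The direction of the small differences rests on how libraries are scaled: 57.4% of the calls were higher in the knockdown after centring on the median, and 14.9% (725 higher and 4153 lower) in the values as deposited, where the median difference of all genes was -0.26 against 0.06 after centring. A difference after centring is thus 0.318 higher than in the deposited values, and rises smaller than that are falls as deposited. Scaled to the linear sum, 50.4% were higher, and after quantile normalization 53.8%. Without knockdown replicate 1 there were 1534 calls, and without knockdown replicate 2 there were 1543.

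Each knockout alone gave a count of similar size. The knockdown differed from Arpc1bE_CdxE1_KO in 3213 genes (29.2%), 1826 higher (16.6%) and 1387 lower (12.6%), and from CdxE2_KO in 2946 genes (26.7%), 1595 higher (14.5%) and 1351 lower (12.3%). Without 1 knockdown library these became 1319 and 1351 genes against Arpc1bE_CdxE1_KO, and 1110 and 1146 against CdxE2_KO. Without 1 library of CdxE2_KO, 1447 or 1458 genes were called against it. Called in all 3 comparisons were 2258 genes (20.5%), 1213 higher and 1045 lower. The knockouts differed from each other in 5 genes (0.0454%), and 1324 genes had an unadjusted p under 0.05 there. Both knockdown libraries lay above all 4 knockout libraries in 3348 genes (30.4%) and below them in 2395 (21.7%).

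Beside these stand the counts against the shared control libraries. These counts, the place of the control mean and all values against the control below are on the centred scale only. Before centring, tested genes had medians of 2.92 and 2.91 in the control, 2.92 in both knockdown libraries and 3.21 to 3.25 in the knockouts. A knockout minus control value is thus lower after centring than as deposited. The knockdown differed from the control in 2575 genes (23.4%), 1305 higher (11.8%) and 1270 lower (11.5%). Arpc1bE_CdxE1_KO differed from it in 674 (6.12%), 318 higher (2.89%) and 356 lower (3.23%), and CdxE2_KO in 1033 (9.38%), 446 higher (4.05%) and 587 lower (5.33%). A difference between knockdown and knockouts can lie on either side, so the place of the control mean was used as a description. Among the 1581 genes that were lower in the knockdown, the control mean was nearer the knockouts in 1119 (70.8%), and among the 2127 that were higher in 1458 (68.5%). Among all tested genes, called or not, these shares were 59.8% for genes on the lower side and 57.8% for genes on the higher side.

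**Figure D2:**
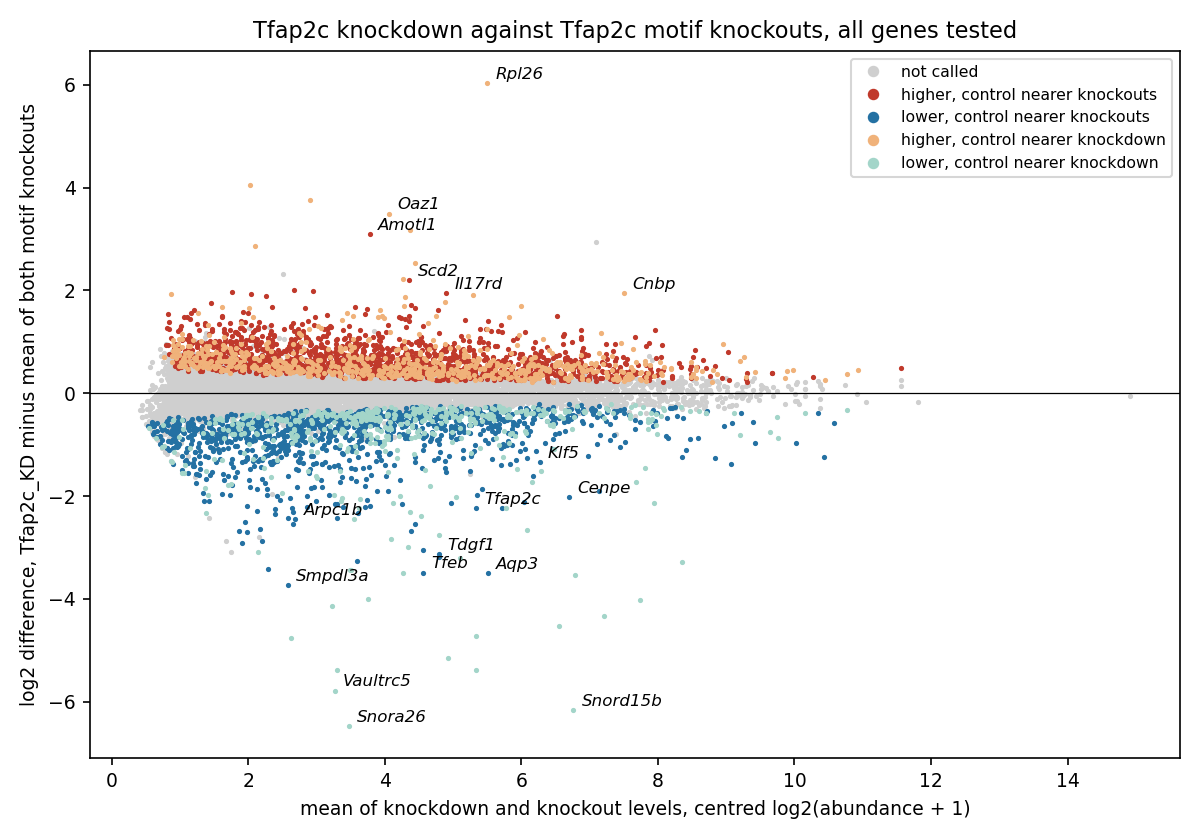
Difference of the knockdown from the mean of both motif knockouts (vertical axis, log2) against the mean level (horizontal axis, centred log2(abundance + 1)), with 1 point per tested gene and grey for genes not called. Dark red and dark blue mark called genes with the control nearer the knockouts and pale colours those with the control nearer the knockdown, and Rpl26, Snora26 and Snord15b at the vertical extremes belong to the pale set.

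The 10 largest falls and 10 largest rises were taken among genes called in all 3 comparisons, with no overlap of knockdown and knockout libraries and a higher group mean of at least 10 linear units. In 16 of these 20 genes the control mean was nearer the knockdown than the knockouts. Of the 10 largest falls, all 10 had the control nearer the knockdown, and 7 were guide RNAs of the Snora and Snord families. Snora26 (chromosome 5, 74093530 to 74093650), an H/ACA RNA, stood at 0.23 and 0.24 in the knockdown, 7.17 and 6.46 in Arpc1bE_CdxE1_KO, 6.59 and 6.59 in CdxE2_KO and 0.24 and 0.24 in the control. The difference from the knockout mean was -6.47 ± 0.18 (SE, limma adjusted p = 2.12e-06). Snord15b, a C/D RNA, differed by -6.16 ± 0.11 (limma adjusted p = 5.79e-07) and Vaultrc5, a vault RNA, by -5.79 ± 0.14 (limma adjusted p = 1.45e-06). Rnu11, an RNA of the minor spliceosome, and Tgoln2, a protein of the trans-Golgi network, differed by -4.34 and -4.13. Against the control, Tgoln2 was at 0.36 in the knockdown (limma adjusted p = 0.0630) and at 4.45 in Arpc1bE_CdxE1_KO and 4.55 in CdxE2_KO.

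Among the 10 largest rises, 6 had the control nearer the knockdown: Rpl26, Amd1, Eif3j1, Oaz1, Hnrnpa3 and Cnbp. Rpl26 (chromosome 11, 68901583 to 68906989), a protein of the large ribosomal subunit, stood at 8.49 and 8.54 in the knockdown, 2.80 and 2.41 in Arpc1bE_CdxE1_KO, 2.46 and 2.25 in CdxE2_KO and 8.41 and 8.51 in the control. Its difference from the knockout mean was 6.04 ± 0.13 (SE, limma adjusted p = 1.24e-06), and its knockdown minus control value was 0.06 (limma adjusted p = 0.815). Oaz1, the antizyme that limits polyamine synthesis, stood at 5.82 and 5.80 in the knockdown, 1.42 to 3.12 over the knockout libraries and 5.85 and 6.04 in the control. Amd1, a decarboxylase of polyamine synthesis, differed by 4.06, Eif3j1, an initiation factor subunit, by 3.76 and Cnbp, a nucleic acid binding protein, by 1.95. Rpl37rt differed by 3.18 in the fit (limma adjusted p = 0.0286), but CdxE2_KO replicate 2 held 5.65 against 1.47 to 2.12 in the other 3 knockout libraries, and the call was lost without either knockdown library or without Arpc1bE_CdxE1_KO replicate 1. Rpl37rt is itself annotated as a transcribed processed pseudogene. Rpl26, Amd1, Eif3j1, Oaz1 and Tgoln2 have near-identical genes or processed copies in the mouse genome, and how reads were divided among copies is not given in the sources used here. Most guide RNAs of this kind lie in introns of other genes, so their values are uncertain too.

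**Figure D3:**
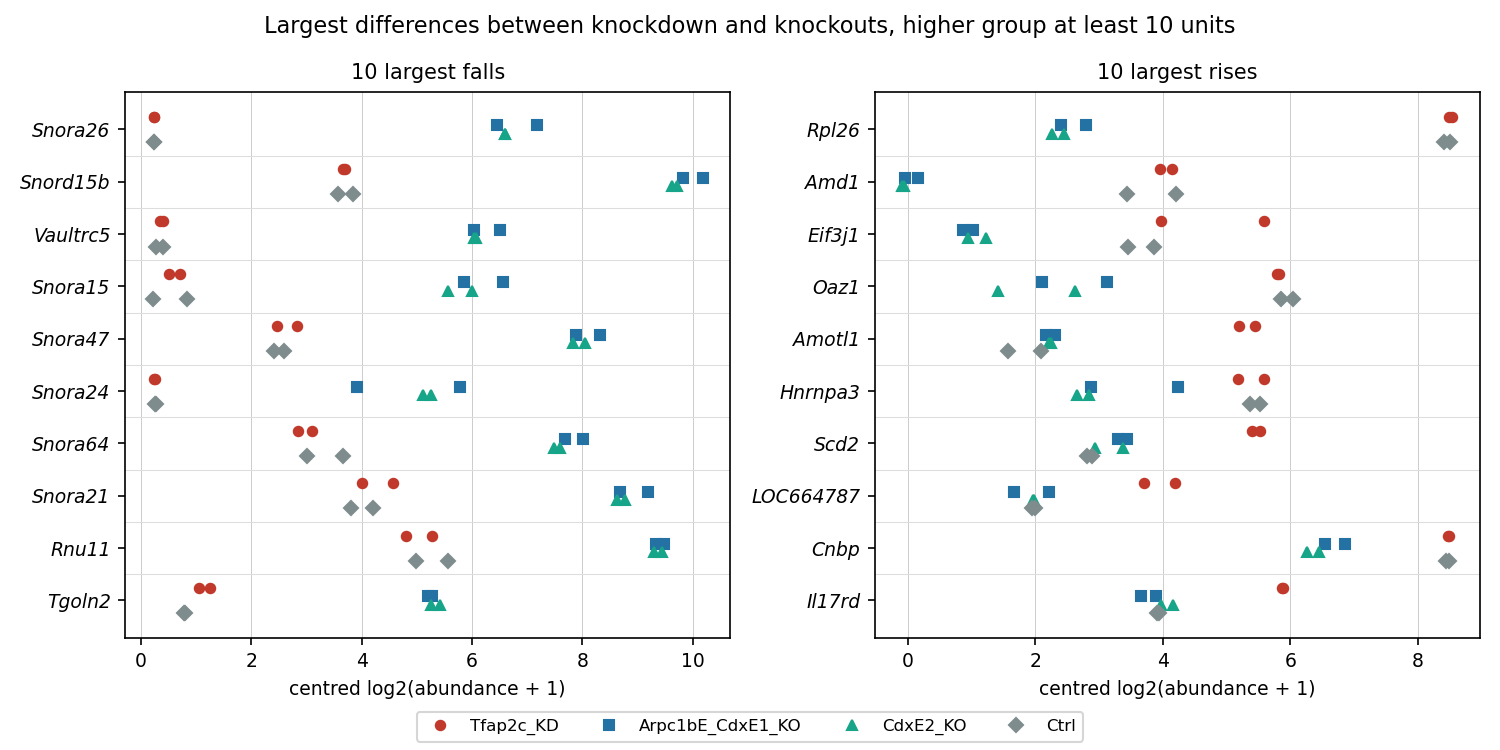
Centred log2(abundance + 1) (horizontal axes) of the 10 largest falls (left) and the 10 largest rises (right) between knockdown and knockouts among genes of at least 10 linear units in the higher group, with 1 point per library and Tfap2c_KD above Arpc1bE_CdxE1_KO, CdxE2_KO and Ctrl in each row. In all 10 falls the control points sit with the knockdown, and among the rises those of Amotl1, Scd2, LOC664787 and Il17rd sit with the knockouts.

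To show genes in which the knockdown stood away from both the knockouts and the control, 12 falls and 12 rises were added after their values had been seen. They are the largest with the control nearer the knockouts, under the same limits with at least 10 linear units in the higher group. They are given as a description of those values. The limits required no overlap of knockdown and knockout libraries, so that separation follows from the choice of genes. Smpdl3a, a phosphodiesterase related to acid sphingomyelinase, stood at 0.50 and 0.92 in the knockdown, 4.64 and 4.25 in Arpc1bE_CdxE1_KO, 4.47 and 4.39 in CdxE2_KO and 5.23 and 4.94 in the control. Aqp3, a channel for water and glycerol, stood at 3.84 and 3.68 in the knockdown, 7.07 and 7.24 in Arpc1bE_CdxE1_KO, 7.37 and 7.35 in CdxE2_KO and 7.03 and 6.93 in the control. Tfeb, a regulator of lysosomal genes, stood at 2.66 and 2.96 in the knockdown, 6.41 and 6.35 in Arpc1bE_CdxE1_KO, 6.25 and 6.19 in CdxE2_KO and 6.24 and 6.46 in the control. In each of these 3 genes, knockout and control libraries lay at least 3 log2 units above the knockdown. The differences from the knockout mean were -3.73 ± 0.16 for Smpdl3a, -3.50 ± 0.09 for Aqp3 and -3.49 ± 0.10 for Tfeb (SE, limma adjusted p of 1.68e-05, 1.45e-06 and 2.29e-06).

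Cldn4, a claudin of tight junctions, stood at 2.77 and 3.29 in the knockdown, 6.10 and 6.27 in Arpc1bE_CdxE1_KO, 6.21 and 5.77 in CdxE2_KO and 6.14 and 6.17 in the control. The knockdown libraries of Cldn4 lay below all others. Tdgf1, a co-receptor of Nodal also named Cripto, stood at 3.26 and 3.20 in the knockdown, 6.57 and 6.36 in Arpc1bE_CdxE1_KO, 6.24 and 6.25 in CdxE2_KO and 6.16 and 5.96 in the control. Its difference from the knockout mean was -3.13 ± 0.09 (SE, limma adjusted p = 2.12e-06), while Arpc1bE_CdxE1_KO minus control was 0.41 (limma adjusted p = 0.0533) and CdxE2_KO minus control 0.19 (0.267). Sox21, a transcription factor of the Sox family, differed by -3.26, Ckb, the brain form of creatine kinase, by -3.19, Ly6a, a surface antigen, by -2.91, and Hes1, a repressor downstream of Notch, by -2.88. Lasp1, an actin-binding protein, differed by -2.68 and Zfp947 by -2.63.

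Promoters of Sox21, Ckb and Lasp1 are shown because they hold the motif GCCNNNGGC. Of the 12 falls, 8 had a promoter entry, and the motif was found in these 3 genes only. Of the 12 rises, 6 had an entry, and 2 of them, Cnn3 and S1pr5, hold the motif and are not shown. Several of these genes have no entry and those with one are few, so falls and rises cannot be compared for the motif. The promoters shown were chosen after their values had been seen, and no share is read from them. Capitals mark the motif, on the gene's own strand and on GRCm38.p6.
Sox21 (chr14:118236981-118237280, minus strand): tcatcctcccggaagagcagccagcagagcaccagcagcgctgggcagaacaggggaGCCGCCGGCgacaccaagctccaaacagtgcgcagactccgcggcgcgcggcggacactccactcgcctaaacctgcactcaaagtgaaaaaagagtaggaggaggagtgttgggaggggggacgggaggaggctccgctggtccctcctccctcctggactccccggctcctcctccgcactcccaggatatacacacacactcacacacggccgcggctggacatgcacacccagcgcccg
Ckb (chr12:111672289-111672588, minus strand): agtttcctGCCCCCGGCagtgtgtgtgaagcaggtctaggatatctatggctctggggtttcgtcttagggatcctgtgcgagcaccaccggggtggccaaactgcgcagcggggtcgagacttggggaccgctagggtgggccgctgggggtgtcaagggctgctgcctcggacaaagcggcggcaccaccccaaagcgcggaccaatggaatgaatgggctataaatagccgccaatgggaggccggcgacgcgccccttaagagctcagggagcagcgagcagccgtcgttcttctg
Lasp1 (chr11:97799315-97799614, plus strand): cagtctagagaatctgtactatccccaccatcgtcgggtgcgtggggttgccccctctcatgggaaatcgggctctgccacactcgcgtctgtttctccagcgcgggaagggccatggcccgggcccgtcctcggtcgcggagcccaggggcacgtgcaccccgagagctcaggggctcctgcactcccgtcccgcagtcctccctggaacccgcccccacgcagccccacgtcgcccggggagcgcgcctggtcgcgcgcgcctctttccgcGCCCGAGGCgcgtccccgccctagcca
The motif begins at position -193 in Sox21, -242 in Ckb and 24 in Lasp1, counted from the start that each promoter entry uses. In the gene positions used elsewhere here, Lasp1 begins at 97799000, upstream of the window shown. Sox21 stood at 1.65 and 2.29 in the knockdown, 5.23 and 5.08 in Arpc1bE_CdxE1_KO, 5.22 and 5.37 in CdxE2_KO and 5.31 and 5.50 in the control. Ckb stood at 3.19 and 3.22 in the knockdown, against 6.18 to 6.53 over the knockout libraries and 6.35 and 6.34 in the control. Lasp1 stood at 3.04 and 3.06 in the knockdown, against 5.43 to 5.91 over the knockout libraries and 6.15 and 5.97 in the control. The knockdown libraries lay below all others in these 3 genes, which for the knockouts follows from the choice of genes. Their motif-bearing promoters are not shown here to be bound.

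The 12 rises ran from 3.09 for Amotl1 to 1.51 for Csrnp3 and Vps26a. Amotl1, an angiomotin-like protein that binds Yap, stood at 5.19 and 5.45 in the knockdown, 2.31 and 2.16 in Arpc1bE_CdxE1_KO, 2.22 and 2.24 in CdxE2_KO and 2.09 and 1.57 in the control (difference 3.09 ± 0.12, SE, limma adjusted p = 8.68e-06). Scd2, a fatty acid desaturase, stood at 5.52 and 5.39 in the knockdown, 3.43 and 3.30 in Arpc1bE_CdxE1_KO, 2.94 and 3.37 in CdxE2_KO and 2.80 and 2.90 in the control. Il17rd, an inhibitor of FGF signalling, stood at 5.88 and 5.87 in the knockdown, 3.65 and 3.90 in Arpc1bE_CdxE1_KO, 3.97 and 4.16 in CdxE2_KO and 3.90 and 3.94 in the control. Control libraries lay below the knockout range for Scd2 and Amotl1, and within it for Il17rd. LOC664787 differed by 1.99, Cnn3, a calponin, by 1.72, B4galt6, which makes lactosylceramide, by 1.67 and S1pr5, a receptor of sphingosine phosphate, by 1.66. Scarf1, a scavenger receptor, differed by 1.62 and Fads1, another desaturase, by 1.52. Vps26a, a part of the retromer, differed by 1.51, with both knockouts below the control as well on the centred scale. On that scale Vps26a minus control was 0.93 in the knockdown, -0.64 in Arpc1bE_CdxE1_KO and -0.50 in CdxE2_KO, each called by limma.

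Gene lists were read against the share of calls among all tested genes, 33.7%, and the median difference of all tested genes, 0.06. Some genes, such as Klf4 and Cldn4, stand in more than 1 list. The counts rest on both knockdown libraries. Calls among all tested genes also fell without either of these libraries, as given above. A drop in a list's count is therefore not particular to that list. Without knockdown replicate 1 and without replicate 2, called members numbered 7 and 7 (11 with both) for trophectoderm, 9 and 10 (16) for pluripotency and inner cell mass, 2 and 2 (5) for AP-2 coregulators, 3 and 4 (6) for the Klf family and 8 and 9 (20) for actins and actin-binding proteins. They numbered 5 and 7 (11) for polarity and junctions, 3 and 2 (5) for ion and water transport, 9 and 10 (18) for lysosome, 5 and 7 (8) for sterol synthesis and 6 and 7 (10) for the p53 response. For mitosis and cell cycle they numbered 4 and 4 (11), for oocyte-inherited transcripts 4 and 3 (9), for heat shock 3 and 2 (8), for interferon 4 and 3 (7), for histones 11 and 9 (28), for cytosolic ribosomal proteins 4 and 4 (15), for mitochondrial ribosomal proteins 5 and 8 (22), for oxidative phosphorylation 4 and 4 (18), for the proteasome 2 and 2 (8), for microRNA entries 15 and 14 (39), for solute carriers 28 and 22 (56) and for zinc finger proteins 27 and 27 (62). Hippo genes, with 9 and 9 (11), and box C/D and H/ACA RNAs, with 51 and 52 (59), changed less in number.

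In the values as deposited, where the median difference of all tested genes was -0.26, the lists shifted toward lower levels in the knockdown. So did the tested genes as a whole: of 11016, 44.3% were called there, 725 higher and 4153 lower. A count near that share is not particular to its list. Trophectoderm counted 2 higher and 12 lower of 16 tested, pluripotency and inner cell mass 0 and 14 of 25 and primitive endoderm 0 and 5 of 9. The Klf family counted 0 higher and 6 lower of 13, polarity and junctions 2 and 15 of 26 and ion and water transport 1 and 6 of 12. Lysosome counted 1 higher and 23 lower of 34, glycolysis and pyruvate 1 and 10 of 19 and mitosis and cell cycle 0 and 22 of 32. Oocyte-inherited transcripts counted 0 higher and 13 lower of 24, transcripts of the 2-cell stage 0 and 2 of 9 and interferon 1 and 6 of 11. Mitochondrial ribosomal proteins counted 0 higher and 32 lower of 77, oxidative phosphorylation 1 and 34 of 79 and histones 2 and 40 of 64. Box C/D and H/ACA RNAs counted 1 higher and 73 lower of 100 and microRNA entries 6 and 41 of 220. The medians as deposited were -0.91 for trophectoderm, -0.62 for pluripotency, -0.51 for mitosis, -0.54 for histones and -1.14 for box C/D and H/ACA RNAs.

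Among trophectoderm genes, 16 of 26 were tested, 3 were higher and 8 lower in the knockdown than in the knockouts, and the median was -0.59. Among those that fell were Cldn4, Fgfr2, Slc2a3, Krt18, Gata3, Eomes and Tead4, and Ppard, Elf3 and Lrp2 rose. Fgfr2, a receptor of fibroblast growth factors, stood at 1.93 and 2.16 in the knockdown, 4.05 and 3.98 in Arpc1bE_CdxE1_KO, 3.68 and 3.75 in CdxE2_KO and 4.13 and 4.07 in the control. Gata3, a trophectoderm transcription factor, stood at 1.50 and 1.38 in the knockdown, 1.92 to 2.58 over the knockouts and 2.40 and 2.38 in the control (difference -0.81 ± 0.15, SE, limma adjusted p = 0.00563). Krt18, a keratin, differed by -0.92 and Eomes, a T-box factor, by -0.77. Against the control, the trophectoderm list had 2 higher and 7 lower genes and a median of -0.35 in the knockdown, 0 higher and 1 lower and a median of 0.05 in Arpc1bE_CdxE1_KO, and 2 higher and 3 lower and a median of 0.02 in CdxE2_KO.

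Pluripotency and inner cell mass genes, 25 of 30 tested, came out with 4 higher and 12 lower in the knockdown and a median of -0.31. Nanog, a homeodomain factor of the epiblast, stood at 3.04 and 2.82 in the knockdown, 5.21 and 4.67 in Arpc1bE_CdxE1_KO, 4.64 and 4.84 in CdxE2_KO and 4.16 and 3.67 in the control. The control thus lay between knockdown and knockouts: Nanog minus control was -0.99 in the knockdown (limma adjusted p = 0.0115), 1.02 in Arpc1bE_CdxE1_KO (0.0320) and 0.82 in CdxE2_KO (0.0472). Pou5f1, which encodes Oct4, differed between knockdown and knockouts by -1.02 ± 0.10 (SE, limma adjusted p = 0.000442). Spic differed by -1.37, Tfcp2l1 by -0.98 and Utf1 by -0.84. The genes that rose were Sall4, Klf2, Fgf4 and Klf17. Of the primitive endoderm list, 9 of 15 genes were tested and 3 called: Pdgfra (-0.94) and Lamb1 (-0.40) fell and Cubn (0.64) rose. Lamb1 lost its call without either knockdown library, without Arpc1bE_CdxE1_KO replicate 1 and without either CdxE2_KO library, and Cubn lost its call without either knockdown library and in the values as deposited.

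Of the other AP-2 genes, Tfap2a and Tfap2e were tested and not called, at -0.59 and -0.18, whereas in the values as deposited all 3 tested AP-2 genes, Tfap2c included, were called lower. Tfap2a stood at 0.33 and 0.21 in the knockdown, against 0.46 to 1.02 over the knockouts, and was listed at 0 in knockdown replicate 2 before centring. Among coregulators of AP-2 factors, 5 of 8 were tested and 5 called: Kctd15, a repressor of AP-2 activity, fell by 1.75 on the log2 scale, and 4 rose, among them Cited2, a coactivator, by 1.05 and Ep300, an acetyltransferase, by 0.47. In the values as deposited, without knockdown replicate 1 and without knockdown replicate 2, 1 of the 4 rises was still called, that of Cited2. Kctd15 stood at 1.31 and 1.41 in the knockdown, 2.92 and 2.82 in Arpc1bE_CdxE1_KO, 3.30 and 3.42 in CdxE2_KO and 2.79 and 2.87 in the control. Of the Klf family, 13 of 19 were tested, with Klf2 (0.51) and Klf17 (0.55) higher and Klf10 (-1.87), Klf5, Klf4 (-0.64) and Klf3 (-0.44) lower in the knockdown. Klf10 stood at 1.34 and 1.33 in the knockdown, 2.99 to 3.40 over the knockouts and 3.39 and 3.11 in the control.

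Among actins and actin-binding proteins, 30 of 34 were tested, 4 were higher and 16 lower in the knockdown, and the median was -0.35, with 0 higher and 19 lower in the values as deposited. Besides Lasp1, Tagln2, a transgelin, stood at 1.16 and 1.28 in the knockdown, 3.78 and 3.61 in Arpc1bE_CdxE1_KO, 3.44 and 3.42 in CdxE2_KO and 4.14 and 3.64 in the control (difference -2.34 ± 0.11, SE, limma adjusted p = 2.77e-05). Tmsb10, which binds actin monomers, differed by -1.61, Vcl, the adhesion protein vinculin, by -1.01 and Actb, cytoplasmic beta-actin, by -0.36. Actg1, cytoplasmic gamma-actin, differed by 0.47: it stood at 5.55 and 5.70 in the knockdown, 5.03 to 5.32 over the knockouts and 5.83 and 5.85 in the control. Of the Arp2/3 complex and its activators, 24 of 26 were tested, with 8 higher and 4 lower and a median of 0.18. That direction turned in the values as deposited, with 1 higher and 8 lower and a median of -0.13, and the counts turned without a knockdown library, to 0 higher and 2 lower without replicate 1 and 2 higher and 4 lower without replicate 2. Besides Arpc1b, the subunit Arpc5 (-0.59) and the regulators Baiap2 (-0.92) and Wipf1 (-0.92) fell, and Cyfip2 (0.89), Wipf2 (0.56) and Abi2 (0.48), which regulate Arp2/3 activators, rose. Cyfip2 lost its call without knockdown replicate 1. The subunit genes Arpc2 (0.22), Arpc3 (0.12), Actr2 (-0.03) and Actr3 (0.26) were not called.

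Of genes of cell polarity and junctions, 26 of 35 were tested, with 4 higher and 7 lower and a median of -0.07. Besides Cldn4, the junction protein Cgn (-0.64) and the polarity protein Pard6b (-0.52) fell, and the desmosome protein Dsp rose by 1.04. Pard6b stood at 1.77 and 2.03 in the knockdown, 2.66 and 2.68 in Arpc1bE_CdxE1_KO, 2.13 and 2.23 in CdxE2_KO and 2.93 and 2.73 in the control. Of the Hippo pathway and Yap targets, 24 of 25 were tested, with 8 higher and 3 lower and a median of 0.20, against 7 higher and 9 lower and a median of -0.12 in the values as deposited. The angiomotin genes moved apart: Amot stood at 2.68 and 2.71 in the knockdown, 4.78 and 5.16 in Arpc1bE_CdxE1_KO, 4.88 and 4.71 in CdxE2_KO and 5.19 and 5.19 in the control, a difference of -2.19 ± 0.13 (SE, limma adjusted p = 6.07e-05), whereas Amotl1 was higher in the knockdown as given above. Amotl2 (0.28) was not called. The DNA-binding partners of Yap also split, with Tead1 at 1.25 and Tead4 at -0.35, and Tead2 (-0.47) not called. Ctgf, a Yap target, rose by 1.18 and the kinase Lats2 by 0.94. Of ion and water transport genes, 12 of 18 were tested: 3 fell, among them Aqp3 and Aqp9 (-0.32), and Aqp11 (1.14) and Atp1b2 (0.72) rose, the last of these without a call in the values as deposited and without knockdown replicate 2.

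Of lysosomal genes, 34 of 40 were tested, with 5 higher and 13 lower and a median of -0.10. Besides Smpdl3a and Tfeb, the cathepsin Ctsh differed by -1.32 and Grn, a lysosomal glycoprotein precursor, by -0.80, while Neu1, a sialidase, differed by 1.08. Grn also stood lower than the control in the knockouts: Grn minus control was -1.62 in the knockdown (limma adjusted p = 6.15e-05), -0.79 in Arpc1bE_CdxE1_KO (0.00981) and -0.84 in CdxE2_KO (0.00665). Of sterol synthesis genes, 21 of 23 were tested, with 7 higher and 1 lower and a median of 0.26. In the values as deposited, the sterol genes counted 5 higher and 4 lower, with a median of -0.06. Dhcr7, the last enzyme of one branch of cholesterol synthesis, stood at 4.53 and 4.42 in the knockdown, 3.12 to 3.43 over the knockouts and 3.40 and 3.29 in the control. Fdft1, squalene synthase, differed by 0.81. Of glycolysis and pyruvate genes, 19 of 23 were tested, with 3 higher and 5 lower and a median of -0.09. The lower ones were Ckb, the creatine kinase given above, the hexokinases Hk2 (-1.81) and Hk1 (-1.05), the glucose transporter Slc2a3 (-1.66) and the monocarboxylate transporter Slc16a1 (-1.07). For Slc16a1 the control was nearer the knockdown. Slc16a1 minus control was -0.17 in the knockdown (limma adjusted p = 0.189), 0.78 in Arpc1bE_CdxE1_KO (0.00166) and 1.02 in CdxE2_KO (0.000365).

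Of p53 response genes, 31 of 32 were tested, with 8 higher and 2 lower in the knockdown than in the knockouts and a median of 0.22. The median was -0.10 in the values as deposited, with 6 higher and 9 lower. Against the control, 19 of the 31 were higher and 1 lower in the knockdown (median 0.68), 11 higher and 1 lower in Arpc1bE_CdxE1_KO (median 0.36) and 9 higher and 1 lower in CdxE2_KO (median 0.44). These counts share the control libraries. Cdkn1a, the p21 cell cycle inhibitor, stood at 5.16 and 5.16 in the knockdown, 4.27 and 4.86 in Arpc1bE_CdxE1_KO, 3.83 and 4.18 in CdxE2_KO and 3.62 and 3.35 in the control. Ccng1, a cyclin induced by p53, stood at 4.12 and 4.26 in the knockdown, 4.41 and 4.13 in Arpc1bE_CdxE1_KO, 3.58 and 3.61 in CdxE2_KO and 2.85 and 2.94 in the control, and its difference of knockdown from the mean of both knockouts was not called (0.26, limma adjusted p = 0.112). For Ccng1 the knockdown libraries overlapped those of Arpc1bE_CdxE1_KO and lay above those of CdxE2_KO. Trp53 itself, which encodes p53, stood at 3.39 and 3.32 in the knockdown, 1.99 to 2.16 over the knockouts and 2.38 and 2.21 in the control (difference 1.25 ± 0.12, SE, limma adjusted p = 0.000379). Perp, a membrane protein induced by p53, fell by 2.30 on the log2 scale. Mdm4, an inhibitor of p53, differed by 1.18, with the control near the knockdown: Mdm4 minus control was 0.21 in the knockdown, -1.03 in Arpc1bE_CdxE1_KO and -0.90 in CdxE2_KO.

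Of mitosis and cell cycle genes, 32 of 34 were tested, with 4 higher and 7 lower and a median of -0.19. Cenpe, a kinesin of the kinetochore, stood at 5.67 and 5.70 in the knockdown, 7.70 and 7.73 in Arpc1bE_CdxE1_KO, 7.69 and 7.70 in CdxE2_KO and 7.66 and 7.66 in the control, so that 6 libraries lay within 0.1 log2 units of each other and the 2 knockdown libraries apart from them (difference -2.02 ± 0.07, SE, limma adjusted p = 4.39e-06). Cdc25a, a phosphatase that activates cyclin-dependent kinases, differed by -1.13 and Cenpf, another kinetochore protein, by -0.69. Of oocyte-inherited transcripts, 24 of 28 were tested, with 2 higher and 7 lower and a median of -0.15. Zfp36l2, which promotes decay of messages, differed by -1.82, Dppa3, a maternal factor, by -0.90 and Btg4, an adaptor of deadenylation, by -0.69, the last with both knockouts above the control: Btg4 minus control was -0.16 in the knockdown, 0.48 in Arpc1bE_CdxE1_KO and 0.59 in CdxE2_KO. Of transcripts of the 2-cell stage, 9 of 26 were tested and 3 called, Tdpoz1 (-1.05) and Eif1a (-0.51) lower and Usp17lb (0.83) higher. Each of these 3 calls was lost without knockdown replicate 2, and those of Eif1a and Usp17lb also without replicate 1. Usp17lb, at 2.05 linear units in its higher group, lost its call under most other settings too. Among them were the values as deposited, the linear sum, quantile normalization, 0.1 added, no filter and eBayes without trend. Of heat shock and integrated stress genes, 26 of 29 were tested, with 5 higher, such as Bag3 (0.91) and Ddit4 (0.68), and 3 lower, against 2 higher and 9 lower in the values as deposited. Of interferon and JAK-STAT genes, 11 of 24 were tested: Ly6a, Irf9 (-1.42), Oasl2 (-0.58) and Ifitm2 (-0.47) fell, and Socs3 (1.19), Irf7 (0.69) and Stat2 (0.55) rose.

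Many guide RNAs were higher in the knockouts than in the knockdown and the control. Of box C/D and H/ACA RNAs, 100 of 119 were tested, 1 was higher and 58 lower in the knockdown, and the median was -0.83. The control mean was nearer the knockdown in all 58 of those lower ones. Against the control, 54 of the 100 were higher and 0 lower in Arpc1bE_CdxE1_KO and 53 higher and 0 lower in CdxE2_KO, where 5 were higher and 3 lower in the knockdown. Of replication-dependent histones, 64 of 68 were tested, with 6 higher and 22 lower and a median of -0.22, such as Hist1h2ad (-2.03) and Hist1h2ao (0.95), whose near-identical copies make single values uncertain. The list's medians in the knockouts averaged there lay on opposite sides of the control: against it, histones counted 0 higher and 16 lower in the knockdown (median -0.33), 8 higher and 3 lower in Arpc1bE_CdxE1_KO (median 0.14) and 2 higher and 17 lower in CdxE2_KO (median -0.37). Of cytosolic ribosomal proteins, 87 of 87 were tested, with 8 higher and 7 lower and a median of 0.02. Rpl26, Rpl34 (0.96) and Rps4l (0.54) were its members of lowest p, of which Rps4l is annotated as a transcribed processed pseudogene. The count for ribosomal proteins moved with the scaling, to 3 higher and 33 lower in the values as deposited, and with single knockout libraries, to 31 higher and 12 lower without Arpc1bE_CdxE1_KO replicate 1 and to 14 higher and 28 lower without its replicate 2. Of mitochondrial ribosomal proteins, 7 of 77 were higher and 15 lower, and of 79 nuclear genes of oxidative phosphorylation 7 were higher and 11 lower. Of 44 proteasome genes, 6 were higher and 2 lower, and of 220 microRNA entries 17 were higher and 22 lower. Solute carriers counted 35 higher and 21 lower of 153, against 14 higher and 47 lower in the values as deposited, and numbered zinc finger proteins 35 higher and 27 lower of 232, against 14 higher and 88 lower as deposited. Proteasome genes also turned in the values as deposited, to 0 higher and 19 lower, and microRNA entries turned when genes with an exact 0 were left out, to 17 higher and 12 lower. Zinc finger proteins counted 12 higher and 15 lower without either knockdown library. Without Arpc1bE_CdxE1_KO replicate 1, oxidative phosphorylation genes turned to 15 higher and 9 lower and heat shock genes to 3 higher and 4 lower. Interferon genes turned to 3 higher and 2 lower without CdxE2_KO replicate 1, and ion and water transport genes to 2 higher and 1 lower without either CdxE2_KO library or without knockdown replicate 1. Of 4 sex-linked genes tested, Eif2s3y was called lower (-0.54 ± 0.11, SE, limma adjusted p = 0.00926), and Xist differed by 0.15 (0.485).

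**Figure D4:**
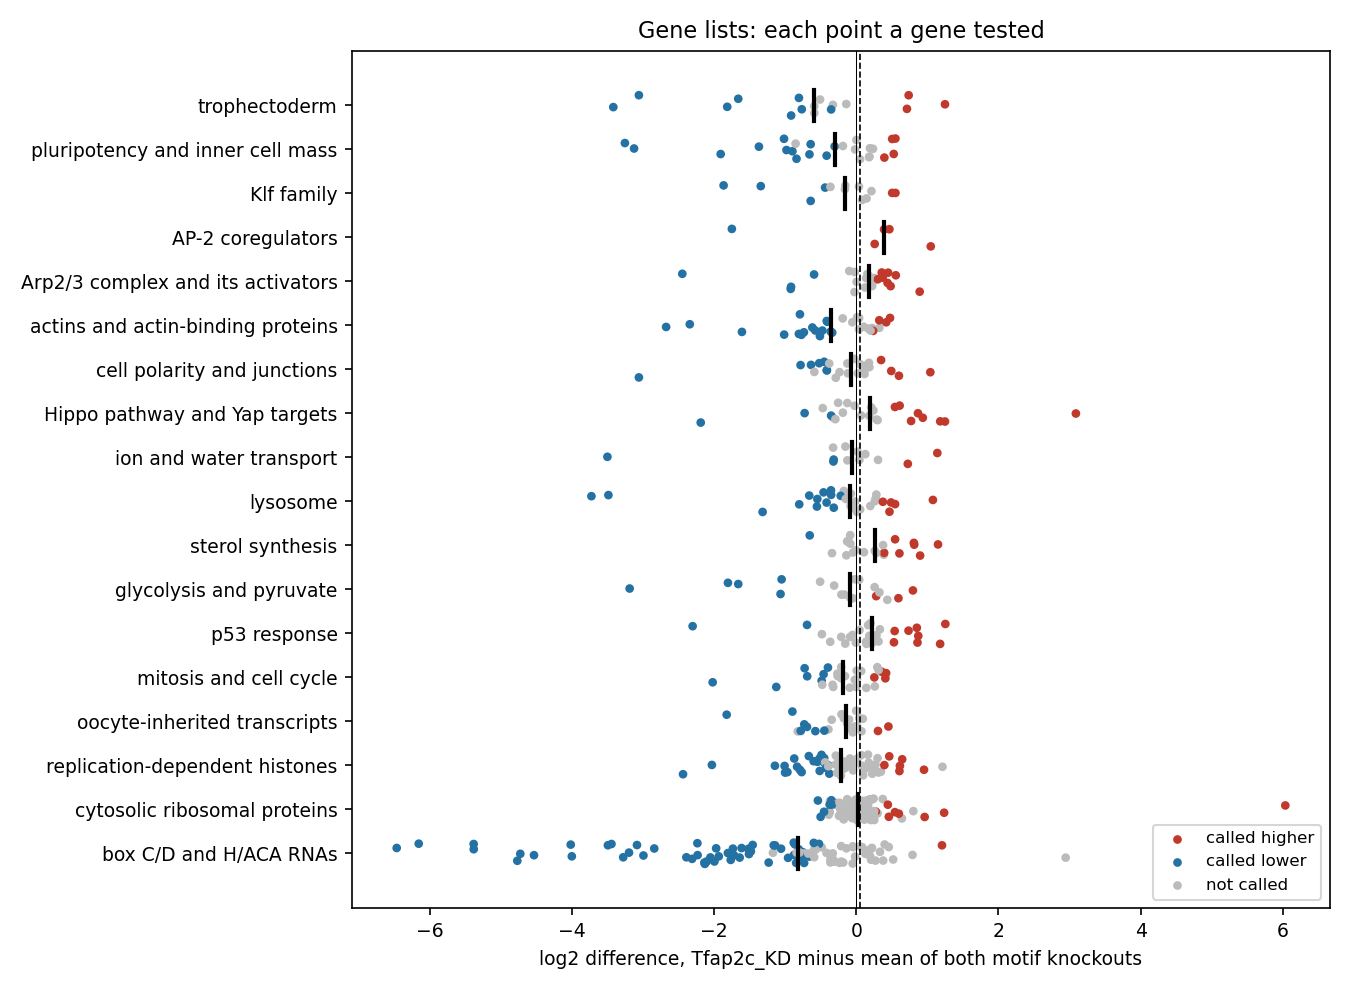
Difference of the knockdown from the mean of both motif knockouts (horizontal axis, log2) for each tested gene of 18 lists (rows), with red for called higher, blue for called lower, grey for not called, a black bar at each list's median and a dashed line at the median of all tested genes (0.06). The box C/D and H/ACA row reaches farthest to the left, with a median of -0.83, and the trophectoderm row has a median of -0.59.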

How the data were processed

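RNA was measured by total RNA sequencing of 8-cell mouse embryos, with libraries primed at random and depleted of ribosomal cDNA, per the labels' protocols. The submitters' processing notes name the mm10 build, StringTie 1.3.4, Cufflinks, HISAT2 2.1.0 and SAMtools 1.7, in no stated order. The authors deposited log2 values of gene abundance in 3 tables, with a constant of 1 inferred from the exact zeros. Which abundance measure they hold is not given in the sources used here. Depth is unknown without read counts, and no counting interval is given. The constant understates differences at low levels, and some exact zeros may be failed estimates.

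The tables were joined by symbol. A gene was kept where 2 or more of the 6 libraries held 1 linear unit or more. Each library was centred on its median. The 3 groups entered 1 fit with 3 residual degrees of freedom (R 4.3.3, limma 3.58.1, moderated variances with a trend), and a call needs an adjusted p under 0.05 by Benjamini-Hochberg. Values against the control come from a fit of 8 libraries on the same genes. All gene p-values are from limma. The code was tested on simulated data.

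The naming rule took the 4 targets. It took the 10 genes with the largest differences in each direction among those called in all 3 comparisons, with no overlap of knockdown and knockout libraries and a higher group mean of at least 10 units. It added the 6 largest each way with the control nearer the knockdown, and the 3 members of lowest p in each list with 3 or more calls. Symbols starting with Gm and a digit, ending in Rik or containing -ps were left out. A few genes that these rules take are not reported here. Other list members and the genes with the control nearer the knockouts were named after their values had been seen. The libraries compared and the 33 gene lists were chosen with earlier results of these data known. Positions are from GENCODE M21 on mm10. Alternatives were other scalings (as deposited, linear sum, quantile), added constants of 0.1 and 5, no filter, a filter at 5 units, a replicate block, eBayes without trend, the knockouts as 1 group, genes with an exact 0 left out, and each library left out in turn.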

Additional observations from a re-analysis of the deposited data

Results flagged for a closer look

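The motif knockouts differed from each other in 5 genes by limma (CdxE2_KO minus Arpc1bE_CdxE1_KO, Benjamini-Hochberg adjusted p under 0.05), which is a difference between groups under the same treatment label. Arpc1b differed by 1.46 (adjusted p = 0.0275), with 4.74 and 4.54 in CdxE2_KO and 3.15 and 3.22 in Arpc1bE_CdxE1_KO. Lpar1, a receptor of lysophosphatidic acid, differed by -2.29 (adjusted p = 0.0110), with 2.16 and 1.79 in CdxE2_KO, 4.20 and 4.33 in Arpc1bE_CdxE1_KO and 4.41 and 4.31 in the control. Lsm5, a protein that binds U-rich RNA ends, differed by 1.76 (adjusted p = 0.0412), with 5.44 and 5.31 in CdxE2_KO, 3.67 and 3.58 in Arpc1bE_CdxE1_KO and 3.71 and 3.86 in the control. Dpm1-adnp differed by 2.22 (adjusted p = 0.0412), with 6.30 and 5.66 in CdxE2_KO, 3.97 and 3.55 in Arpc1bE_CdxE1_KO and 6.15 and 6.21 in the control. Dbf4, a regulator of the replication kinase Cdc7, differed by 0.78 (adjusted p = 0.0498), with 7.39 and 7.46 in CdxE2_KO, 6.64 and 6.67 in Arpc1bE_CdxE1_KO and 7.17 and 7.22 in the control. In the knockdown these genes stood at 1.45 and 1.48 for Arpc1b, 4.63 and 4.84 for Lpar1, 4.19 and 4.73 for Lsm5, 6.16 and 6.06 for Dpm1-adnp and 6.94 and 6.86 for Dbf4.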

How the results depend on the processing

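Against the mean of both knockouts, counts under the other scalings, constants, the filter at 5 units and other models stayed within 1.5 times of 3708. With no filter (20347 genes) the counts were 8282 against both knockouts, 7061 against Arpc1bE_CdxE1_KO and 7007 against CdxE2_KO. Leaving out each library in turn gave 1534 to 4254 genes against both, 1319 to 3513 against Arpc1bE_CdxE1_KO and 1110 to 3809 against CdxE2_KO. A lone library left in a group is assumed there to vary like the other groups. The lowest counts came without a knockdown library. Tfap2c, Klf5 and Arpc1b kept direction and call under every alternative run. Cdx2, untested at -0.29, was at -0.61 as deposited, -0.51 scaled to the linear sum, -1.09 with 0.1 added and turned to 0.033 with 5 added, and ranged from -0.49 to -0.10 over left-out libraries. Of 104 other named genes, 92 kept call and direction under every alternative run, 12 lost the call under at least 1 and 0 reversed. With a replicate block, counts were 3558, 3042 and 2770, and no named gene lost its call. Replicate numbers share no stated source, and the deviations of same-numbered libraries had r of 0.04, -0.03 and -0.01 across genes over the 3 group pairs, so the numbers were not used as pairs. The cause of the changes with the filter was not tested. Depth is unknown, so the limit it sets on low genes such as Cdx2 could not be stated.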
